A study of Mus musculus with 14 samples.

Results

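Messenger RNA of the genes of the extracellular matrix and of the perineuronal matrix was measured by bulk RNA-seq in 14 cultures of primary microglia. Members were matched by gene symbol, and the list was chosen with earlier results of these data known. They were all collagen alpha chains and laminin chains, together with fibronectin (Fn1), fibrillins (Fbn1, Fbn2), nidogens (Nid1, Nid2), perlecan (Hspg2), agrin (Agrn), SPARC and its relative (Sparc, Sparcl1), tenascins (Tnc, Tnr) and the lecticans aggrecan, brevican, neurocan and versican (Acan, Bcan, Ncan, Vcan). In the GRCm38 annotation 70 symbols matched, and 68 of them had at least 10 counts summed over all libraries, out of 49315 genes in the table and 23447 genes with at least 10 counts. Col6a5 and Col6a6, with 9 counts each, fell under this minimum. Of the 68 members, 52 also passed the filter on low counts and were tested, among 15700 tested genes.

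The cultures came from 7 pools of TIMP2 KO pups and 7 pools of WT pups. TIMP2 is a secreted inhibitor of metalloproteinases, and the KO mice carried a global deletion, which was not restricted to microglia. All animals were of the C57BL/6 strain, at postnatal days 6 to 7, with 5 pups of both sexes in a pool, and each library was a separate isolation. Forebrain cells were selected with CD11b microbeads, plated on poly-d-lysine and kept in culture for 72 h. The libraries held between 38875344 and 48070236 counted reads. Timp2 itself, the deleted gene, lay between 120 and 129 CPM (counts scaled to library size with TMM factors) in KO and between 398 and 495 CPM in WT, and no KO library reached a WT library (log2 fold change −1.92, adjusted p = 1.53e-12, edgeR).

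The extracellular matrix is a mesh of secreted proteins around cells. Collagen IV and laminins form basement membranes, which nidogens, perlecan and agrin tie together. Fibrillar collagens and fibronectin form fibers in connective tissue. In the brain, most of the space between cells is instead filled by a loose matrix of hyaluronan, lecticans, link proteins and tenascins, which condenses into perineuronal nets around some neurons and which microglia can take up and degrade. The basement membrane of brain vessels is made mainly by endothelial cells, mural cells and astrocytes, and fibrillar collagens mainly by fibroblasts of the meninges and around vessels.

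Promoters are shown for 2 of the pairs of members whose levels are set side by side across cultures below, the basement membrane chains Col4a1 and Col4a2 and the lecticans Ncan and Bcan. Each window runs from 250 bases before to 50 bases after the start site in RefSeq (GRCm38.p6), read 5′ to 3′ on the strand of the gene. Col4a1 lies at chr8:11198423-11312826 on the reverse strand and Col4a2 at chr8:11312805-11449287 on the forward strand in GENCODE, head to head with 22 bases in common. Their windows are chr8:11312777-11313076 and chr8:11312555-11312854 and share 78 bases, read on opposite strands. Ncan lies at chr8:70093085-70120873 with the window chr8:70120795-70121094, and Bcan at chr3:87987531-88000230 with the window chr3:88000307-88000606, both on the reverse strand. The RefSeq starts of Ncan and Bcan differ from their GENCODE bounds. Capitals mark the CCAAT box (CCAAT, or ATTGG on the other strand), the GC box (GGGCGG or CCGCCC) and the TATA box (TATAAA or TTTATA).
Col4a1: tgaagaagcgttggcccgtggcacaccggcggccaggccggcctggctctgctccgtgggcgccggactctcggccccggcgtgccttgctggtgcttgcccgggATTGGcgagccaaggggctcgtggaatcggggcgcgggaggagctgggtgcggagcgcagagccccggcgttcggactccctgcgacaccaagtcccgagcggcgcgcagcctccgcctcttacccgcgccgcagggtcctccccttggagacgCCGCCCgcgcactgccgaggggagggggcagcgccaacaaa
Col4a2: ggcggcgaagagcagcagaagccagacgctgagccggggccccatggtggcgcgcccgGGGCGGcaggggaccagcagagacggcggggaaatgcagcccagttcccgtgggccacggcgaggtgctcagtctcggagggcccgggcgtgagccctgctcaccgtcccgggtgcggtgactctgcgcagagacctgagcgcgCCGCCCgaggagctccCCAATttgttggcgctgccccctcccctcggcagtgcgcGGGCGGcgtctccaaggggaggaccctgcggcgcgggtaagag
Ncan: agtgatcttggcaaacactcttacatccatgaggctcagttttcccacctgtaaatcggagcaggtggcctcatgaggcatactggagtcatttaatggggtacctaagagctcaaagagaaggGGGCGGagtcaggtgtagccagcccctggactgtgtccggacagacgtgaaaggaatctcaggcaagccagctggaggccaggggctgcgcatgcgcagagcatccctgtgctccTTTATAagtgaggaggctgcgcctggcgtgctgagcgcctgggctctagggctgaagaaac
Bcan: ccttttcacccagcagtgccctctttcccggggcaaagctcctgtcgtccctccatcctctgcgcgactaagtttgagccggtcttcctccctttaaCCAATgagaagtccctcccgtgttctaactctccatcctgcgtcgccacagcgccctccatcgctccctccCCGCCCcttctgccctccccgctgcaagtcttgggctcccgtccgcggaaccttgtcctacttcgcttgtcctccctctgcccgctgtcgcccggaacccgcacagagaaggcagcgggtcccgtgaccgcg

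The Col4a2 window held 3 GC boxes and each of the other windows held 1. The GC box of Col4a1 and the last of those of Col4a2 are the same site, read on opposite strands. A CCAAT box was found in the windows of Col4a1, Col4a2 and Bcan, and a TATA box, on the opposite strand to the gene, in that of Ncan. Windows were listed for 49 of the 68 members, 55 windows in all. A GC box stood in 63.6% of them and in 35.7% of all 32851 windows, a CCAAT box in 32.7% against 37.4%, and a TATA box in 14.5% against 13.6%. No match overlapped another within the same printed window, and a match is a description of the letters only.

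Per unit of length, matrix transcripts were carried by few genes. The mean level summed over the 68 members was 262 TPM (counts scaled by exon length and library size), and the 8 members with at least 10 TPM made up 77.7% of it. These were Sparc, a collagen-binding protein secreted by many cells (48.9 ± 19.3 TPM, SD, n = 14), Ncan (31.1 ± 27.3), Lamc1 (30.0 ± 2.35), Fn1 (28.0 ± 8.29), Agrn (18.4 ± 2.51), Sparcl1 (18.3 ± 13.2), Lamb2 (15.6 ± 3.31) and Nid2 (13.5 ± 2.51). The levels of Ncan, Lamc1 and Fn1 did not differ beyond the spread of Ncan and Fn1. A further 21 members lay between 1 and 10 TPM and 39 under 1 TPM. By class, the summed level was highest for the SPARC proteins (67.1 TPM) and laminin chains (53.4 TPM), followed by lecticans and tenascins (45.4 TPM), basement membrane linkers (34.4 TPM) and fibronectin with fibrillins (28.6 TPM). The 42 collagen chains were lower, with 9.98 TPM for fibrillar, 9.69 TPM for network-forming, 6.17 TPM for fibril-associated, 5.66 TPM for transmembrane, multiplexin and other chains and 1.71 TPM for collagen VI.

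**Figure D1:**
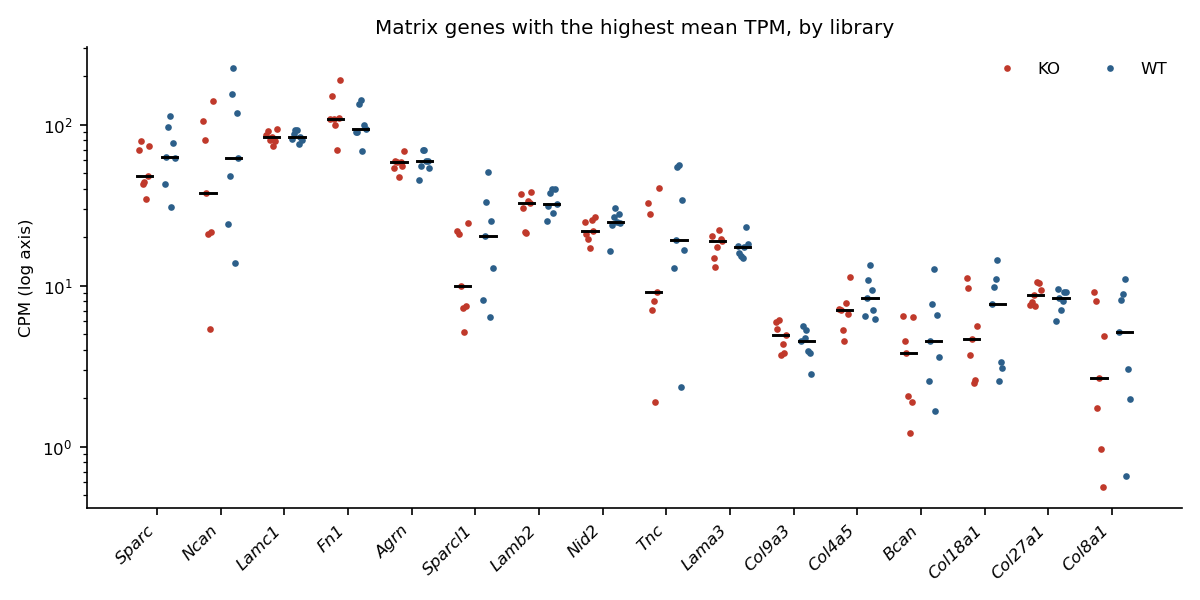
Level of the 16 matrix genes with the highest mean TPM in each of the 14 libraries, as CPM on a log axis, with KO in red and WT in blue (7 each) and the median as a bar. Lamc1 lies between 74.1 and 93.4 CPM in all libraries, whereas Ncan runs from 5.38 to 225 CPM, and KO and WT overlap for every gene.

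The 16 members that were not tested held between 14 and 160 counts in all libraries together. They were Acan (160 counts), the proteoglycan of cartilage and of perineuronal nets, Col25a1 (155), Lama1 (139), Col4a3 (128), Col9a1 (119), Col22a1 (65), Lamc3 (62), Col19a1 (54), Lamb3 (46), Col17a1 (41), Col10a1 (39), Col28a1 (34), Col13a1 (27), Col6a4 (25), Col26a1 (24) and Col24a1 (14). Of all members, 12 had at least 1 library without a count, 1 of them, Col8a2, among those tested. Acan ranged from 0 to 31 counts. These 16 members were compared between genotypes only where another setting kept them in the fit.

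Most matrix genes varied widely between cultures of the same genotype. The spread was measured as the biological coefficient of variation (BCV), the relative spread that is left after counting error is taken out. The median BCV was 0.491 over the 52 members and 0.109 over all tested genes. It was set against the trend that edgeR fits to the BCV by level, which lay above the BCV of most tested genes. A BCV above this trend was found for 41 of the 52 members and for 22.1% of all tested genes. A BCV more than 2 times the trend was found for 22 members and for 4.35% of all tested genes. The SD of log2 CPM within a genotype had a median of 0.84 over the members and of 0.15 over all tested genes.

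**Figure D2:**
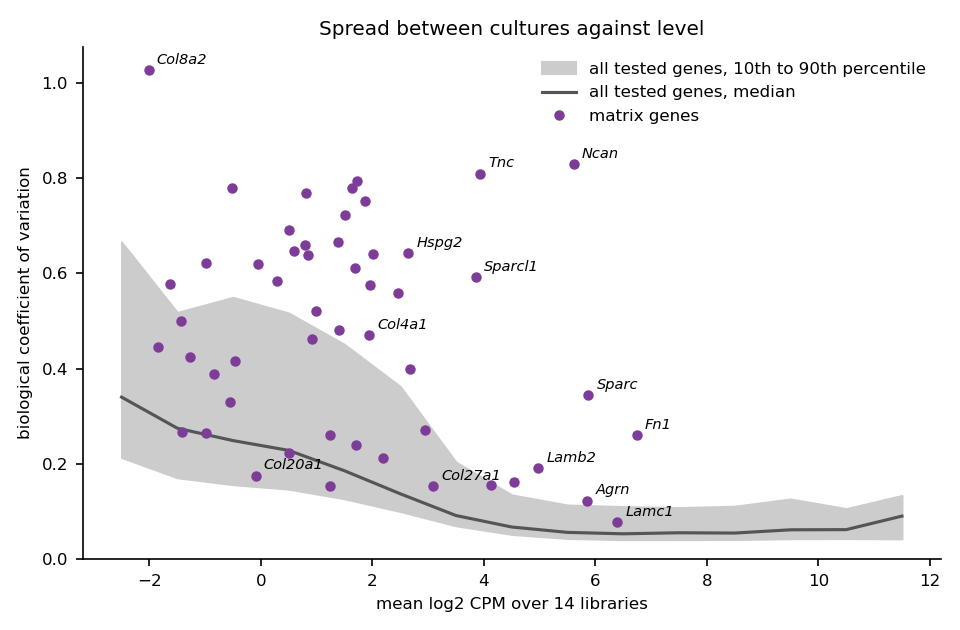
Biological coefficient of variation of each tested matrix gene (purple) against its mean log2 CPM over 14 libraries, with the median (line) and the range from the 10th to the 90th percentile (gray) of all tested genes of the same level. Ncan (0.83) and Tnc (0.809) stand far above the gray range, whereas Lamc1 (0.0783) lies within it.

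By class, the median BCV was highest for lecticans and tenascins (0.751), all 5 tested members of which had a BCV more than 2 times the trend. Single members of other classes also spread widely, such as Col8a1 (0.794) and Col12a1 (0.779). Ncan, a brain lectican that binds hyaluronan, ranged in KO from 5.38 CPM (replicate 5) over a median of 37.6 CPM to 141 CPM (replicate 7), and in WT from 13.8 CPM (replicate 5) over 61.8 CPM to 225 CPM (replicate 4). The highest library thus had 41.8 times the level of the lowest, and the BCV of 0.83 was 10.1 times the trend. KO and WT libraries were interleaved along this range.

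Tnc, a tenascin of developing tissue and of glia, ranged from 1.90 to 40.3 CPM in KO (median 9.09) and from 2.35 to 55.9 CPM in WT (median 19.1), with the lowest libraries at KO replicate 5 and WT replicate 5. Bcan, the other brain lectican, ranged from 1.21 to 6.51 CPM in KO (median 3.80) and from 1.67 to 12.7 CPM in WT (median 4.54). Tnr, a tenascin of oligodendrocytes and perineuronal nets, ranged from 0.642 to 8.38 CPM in KO (median 2.74) and from 0.900 to 13.5 CPM in WT (median 4.67). All 3 were highest in WT replicate 4, and the libraries low in one were low in the others. Vcan, a lectican made by oligodendrocyte precursors and by many cells outside the brain, ranged from 1.06 to 6.16 CPM in KO (median 2.29) and from 1.14 to 9.80 CPM in WT (median 3.16), with the same libraries at both ends.

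Lamc1, the gamma chain shared by most laminin trimers, lay between 74.1 and 93.4 CPM in KO (median 84.2) and between 75.3 and 92.4 CPM in WT (median 83.6). Its BCV was 0.0783 against a trend of 0.0818, and the median BCV of tested genes of similar level was 0.0531. Agrn, a heparan sulfate proteoglycan of basement membranes, lay between 47.3 and 68.2 CPM in KO and between 45.4 and 69.7 CPM in WT. Nid2, which links laminin to collagen IV, ranged from 17.1 to 26.6 CPM in KO and from 16.4 to 30.3 CPM in WT. Lamb2, a beta chain, ranged from 21.1 to 38.2 CPM in KO and from 25.1 to 40.1 CPM in WT, and Lama3, the alpha chain of the laminin that anchors epithelia, from 13.1 to 22.1 CPM in KO and from 14.9 to 23.1 CPM in WT. For their level, the BCVs of Agrn, Nid2, Lamb2 and Lama3 were still 1.44, 1.46, 1.95 and 1.26 times the trend. Among collagens, Col27a1 (7.50 to 10.5 CPM in KO, 6.00 to 9.48 CPM in WT), Col23a1 (1.77 to 2.80 CPM in KO, 1.96 to 2.83 CPM in WT), Col20a1 (0.816 to 1.13 CPM in KO, 0.615 to 1.29 CPM in WT) and Col9a3 (3.70 to 6.09 CPM in KO, 2.84 to 5.65 CPM in WT) had a BCV below the trend. Of the 11 tested members with such a BCV, Lamc1 was the only one that was not a collagen. Against the median BCV of tested genes of similar level, Col27a1 (0.154, median 0.0914) and Col9a3 (0.212, median 0.137) were above. Col23a1 (0.153, median 0.185) and Col20a1 (0.175, median 0.249) were below.

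Within the laminin family, the chains differed in BCV, but their levels differed as well. Lamb1, the other widespread beta chain, ran from 0.395 to 1.82 CPM in KO and from 0.549 to 3.16 CPM in WT, and Lama4, the alpha chain of vessel walls, from 0.404 to 1.87 CPM in KO and from 0.220 to 3.14 CPM in WT. Lama5, an alpha chain of mature basement membranes, ran from 3.31 to 11.0 CPM in KO and from 4.04 to 12.5 CPM in WT. Their BCVs were 0.583, 0.619 and 0.400, against 0.192 for Lamb2 and 0.156 for Lama3. For their level, these were 1.815, 1.881 and 1.85 times the trend, against 1.95 for Lamb2 and 1.26 for Lama3. Lamb2 thus did not stand apart from them once level was taken into account. Among linkers, the BCVs were 0.643 for Hspg2, the large proteoglycan perlecan, and 0.462 for Nid1, against 0.123 for Agrn and 0.161 for Nid2. For their level, these were 3.174 times the trend for Hspg2 and 1.498 for Nid1, against 1.441 for Agrn and 1.464 for Nid2. Of these linkers, only Hspg2 thus stood apart once level was taken into account.

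The cultures at the ends of the range were largely the same for many members. WT replicate 4 was the highest library for 33 of the 52 members, and for 14.9% of all tested genes. KO replicate 5 was the lowest for 19 members and for 12.1% of all tested genes, WT replicate 5 for 9 members and for 7.4% of all tested genes, and KO replicate 6 for 10 members and for 4.72% of all tested genes. The median deviation of the members from their own means was 1.16 on the log2 scale in WT replicate 4 and 0.99 in WT replicate 3, and it was −1.07 in KO replicate 5, −0.84 in WT replicate 5 and −0.75 in KO replicate 6. Both ends thus held libraries of WT, and both genotypes had cultures with little matrix RNA. The summed CPM of all members ran from 388 in WT replicate 5 and 389 in KO replicate 5 to 1080 in WT replicate 4. In the same order these libraries held 45824985, 41068745 and 41538291 counted reads.

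**Figure D3:**
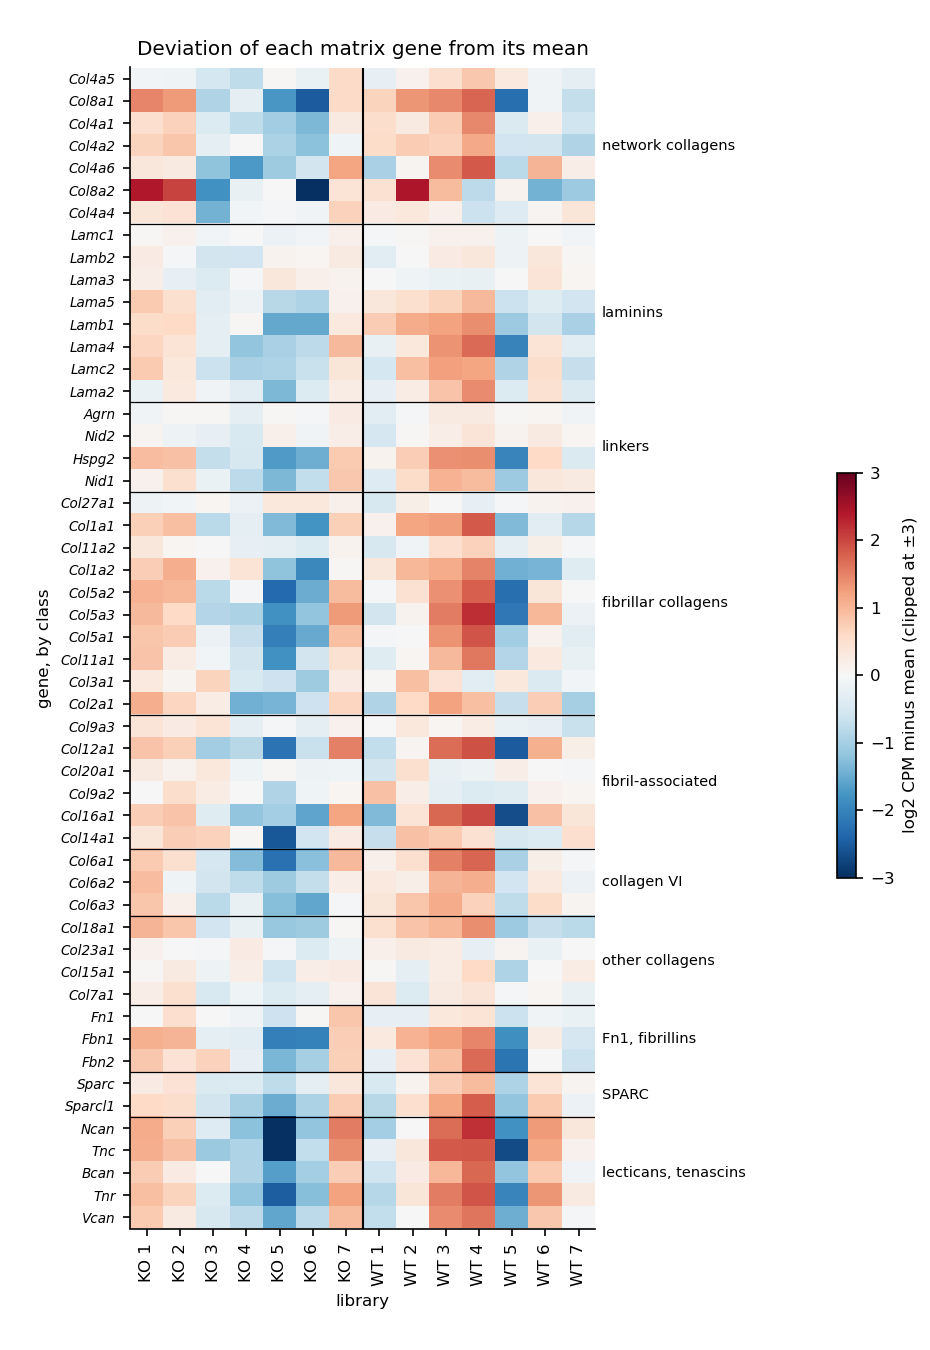
Deviation of each of the 52 tested matrix genes from its mean log2 CPM in each of the 14 libraries, with genes ordered by class and by level within a class. Red columns at WT replicates 3 and 4 and blue columns at KO replicate 5 and WT replicate 5 cross most classes, while rows such as Lamc1, Agrn and Col27a1 stay pale.

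Not all members followed the same order of cultures. WT replicate 6 had the third highest Ncan among WT libraries (118 CPM) and the highest Lamb2 (40.1 CPM), but it was the third lowest of all libraries for Col1a2 (1.51 CPM), the second chain of collagen I, and also low for Col18a1 (3.37 CPM), the multiplexin of basement membranes. Fn1, which binds collagen and integrins, was highest in KO replicate 7 (191 CPM) and lowest in WT replicate 5 (68.6 CPM). Col8a2, a short-chain network collagen, was highest in WT replicate 2 (1.31 CPM) and KO replicate 1 (1.28 CPM) and had no count in KO replicate 6. Lama3 was below its median in WT replicate 4 (14.9 CPM).

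Marker lists of microglia and of the cell types known to make matrix were read in the same libraries. Among microglial markers, Csf1r, the receptor that microglia need to survive, lay between 2242 and 3323 CPM, and Cx3cr1, the fractalkine receptor, between 580 and 1327 CPM, both detected in all libraries. All 8 astrocyte markers were also detected in all libraries, summing to 29.6 to 137 CPM in KO (median 49.6) and to 33.2 to 261 CPM in WT (median 89.9), and Gfap, the astrocyte filament protein, ranged from 2.54 to 84.5 CPM. The 6 oligodendrocyte lineage markers summed to 9.58 to 50.9 CPM in KO (median 18.2) and to 11.4 to 64.1 CPM in WT (median 29.2), with Cspg4 (5.38 to 29.4 CPM) the most abundant. Both sums were highest in WT replicate 4 and lowest in KO replicate 5, the libraries at the ends of the range for the matrix genes.

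The 7 fibroblast markers summed to 1.05 to 2.98 CPM in KO and to 0.789 to 2.87 CPM in WT, and 4 of them, Lum, Slc6a13, Foxc1 and Twist1, were at 0 in 1 or 2 libraries. The 6 mural cell markers summed to 1.70 to 5.91 CPM in KO and to 3.05 to 6.96 CPM in WT, with Higd1b at 0 in 1 library. The 7 endothelial markers summed to 38.4 to 62.0 CPM in KO and to 31.2 to 53.2 CPM in WT, but most of this came from the receptors Flt1 (14.6 to 46.2 CPM) and Kdr (11.6 to 19.7 CPM), whereas Cldn5, Tie1, Tek and Emcn each stayed under 1 CPM and Emcn was at 0 in 1 library. The 6 neuronal markers summed to 17.0 to 35.8 CPM in KO and to 19.3 to 41.4 CPM in WT. The 7 border macrophage markers summed to 499 to 816 CPM in KO and to 447 to 876 CPM in WT, led by the mannose receptor Mrc1, and Lyve1 was at 0 in 3 libraries. In such bulk samples fewer cells of a type and less RNA per cell cannot be told apart.

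Across the 14 cultures, 16 relations between members, or between a member and a marker sum, were computed on log2 CPM. By permutation within genotype with Benjamini-Hochberg adjustment, 13 of them had an adjusted p under 0.05 by Pearson's r and 13 by Spearman's rho. The smallest p that 100000 permutations can give is 1e-05. No gene stands both in a marker list and among the members.

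The lecticans and tenascins and Sparcl1, a glycoprotein secreted by astrocytes, followed glial markers closely. The astrocyte sum was related to Sparcl1 with r = 0.99 and rho = 0.98, to Bcan with r = 0.96 and rho = 0.94, to Ncan with r = 0.95 and rho = 0.98 and to Tnc with r = 0.94 and rho = 0.99 (permutation p = 1e-05 for each r and each rho, adjusted 1.8e-05 for r and 2.7e-05 for rho). The oligodendrocyte lineage sum was related to Tnr with r = 0.99 and rho = 0.98 and to Vcan with r = 0.98 and rho = 0.99 (the same p-values). Without the 2 libraries farthest from the median of the marker sum, r remained between 0.94 and 0.98 for these 6 relations. Within KO alone r was between 0.91 and 0.99, and within WT alone between 0.93 and 1.00. The astrocyte and oligodendrocyte lineage sums shared their highest libraries (WT replicates 4 and 3 and KO replicate 7). They also shared their lowest, KO replicate 5 and WT replicate 5. No gene was set against both sums, so a relation particular to either cell type was not tested. Bcan and Ncan, whose windows are printed above, were related to each other with r = 0.97 (permutation p = 1e-05, adjusted 1.8e-05) and rho = 0.97 (permutation p = 2e-05, adjusted 4.6e-05), with r = 0.97 without the libraries at the ends.

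Chains that assemble into the same protein were related as well. Pairs of chains from different proteins were not computed, so whether such a relation is particular to partner chains was not tested. For Col1a1 and Col1a2, the chains of collagen I, r was 0.89 (permutation p = 8e-05, adjusted 0.00013) and rho 0.92 (p = 6e-05, adjusted 0.00011). For Col6a1 and Col6a2, r was 0.94 (permutation p = 1e-05, adjusted 1.8e-05) and rho 0.92 (p = 6e-05, adjusted 0.00011). For Lamb1 and Lamc1, r was 0.82 (permutation p = 0.00036, adjusted 0.00052) and rho 0.82 (p = 0.00015, adjusted 0.00022), although Lamb1 varied much more. For Col4a1 and Col4a2, r was 0.89 (permutation p = 1e-05, adjusted 1.8e-05) and rho 0.87 (p = 0.00014, adjusted 0.00022). Without the 2 libraries farthest from the median of the first gene of the pair, r was 0.83 for collagen I, 0.91 for collagen VI, 0.76 for Lamb1 and Lamc1 and 0.82 for collagen IV, and within each genotype it was between 0.84 and 0.98.

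The relations with fibroblast and endothelial markers were less uniform. Col1a1 was related to the fibroblast sum with r = 0.82 (permutation p = 0.00051, adjusted 0.00068) and rho = 0.82 (p = 0.0004, adjusted 0.00053), with r = 0.76 without the 2 farthest libraries, 0.84 within KO and 0.81 within WT. Col3a1, the fibrillar collagen of soft tissue, was not shown to follow it (r = 0.43, permutation p = 0.126, adjusted 0.135, rho = 0.36, p = 0.216, adjusted 0.23), nor was Fn1 (r = 0.43, permutation p = 0.126, adjusted 0.135, rho = 0.44, p = 0.113, adjusted 0.129). Without the 2 farthest libraries r was 0.60 for Col3a1 (permutation p = 0.0244, unadjusted) and 0.21 for Fn1 (permutation p = 0.481). Col4a1 ran against the endothelial sum (r = −0.62, permutation p = 0.0257, adjusted 0.0317, rho = −0.57, p = 0.0398, adjusted 0.049), with r = −0.27 within KO, −0.84 within WT and −0.63 without the 2 farthest libraries. This relation rested on single libraries, since r was −0.48 (permutation p = 0.101) without WT replicate 4 and −0.55 (permutation p = 0.0538) without KO replicate 6. Sparc was not shown to follow the endothelial sum (r = −0.40, permutation p = 0.155, adjusted 0.155, rho = −0.31, p = 0.273, adjusted 0.273, r = −0.37 without the 2 farthest libraries).

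**Figure D4:**
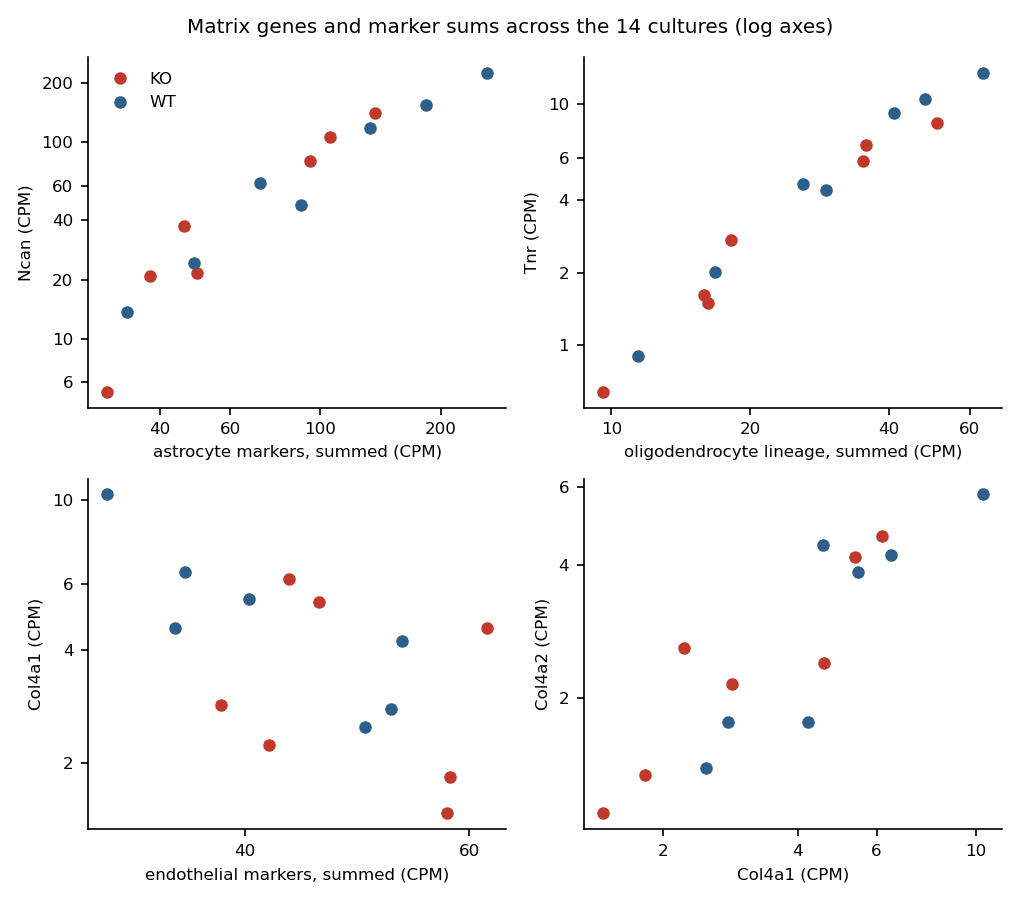
Panels of 14 libraries each, on log axes in CPM, with KO in red and WT in blue: Ncan against summed astrocyte markers, Tnr against summed oligodendrocyte lineage markers, Col4a1 against summed endothelial markers, and Col4a2 against Col4a1. The first pair of panels rises along a narrow line in both genotypes (r = 0.95 and 0.99), the third falls loosely (r = −0.62), and the last rises (r = 0.89).

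The 6 collagen IV chains lie as 3 pairs of neighbors on opposite strands, and the pairs differed in level. Col4a1 had 2649 and Col4a2 1813 counts in all libraries, and their ratio was between 0.862 and 2.40 in single libraries. Col4a5 had 4838 and Col4a6 1401 counts, 1308 bases apart on the X chromosome, with a ratio between 1.97 and 9.30. Col4a5 was thus above Col4a6 in all 14 libraries. Col4a3 and Col4a4, 71 bases apart on chromosome 1, had 128 and 226 counts. Per length, Col4a5 (3.51 ± 1.13 TPM) was above Col4a1 (1.72 ± 0.960 TPM) and Col4a2 (1.32 ± 0.675 TPM), and Col4a4 was at 0.103 ± 0.0327 TPM (SD, n = 14).

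TIMP2 inhibits the enzymes that cleave matrix, and the last question is whether matrix transcripts differed between KO and WT. None of the 52 tested members did at an adjusted p under 0.05. The call was made for 3 of all tested genes (0.0191%) with edgeR, and with DESeq2 for 0.0955% of all tested genes and 0 members. At an unadjusted p under 0.05 there were 0 members, against 3.37% of all tested genes, and the smallest member p was 0.0574 (Col6a3). The adjusted p of the members lay between 0.943 and 0.992. The libraries of both genotypes overlapped for all 52 members, and did not overlap for 0.0828% of all tested genes.

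The estimates nonetheless leaned to one side. In KO, 44 of the 52 members had a lower estimate and 8 a higher one, while 49.2% of all tested genes were lower. The median log2 fold change was −0.40 over the members and 0.0016 over all tested genes. The 95% interval covered 0 for all 52 members. All members were read from the same 14 cultures, so their directions are not independent. The list was also chosen with earlier results of these data known, and no test was made of it. The median depended on single libraries. It was −0.16 without WT replicate 4, −0.25 without KO replicate 5 and −0.26 without WT replicate 3, and the number of lower members was then 42, 42 and 41. All 8 astrocyte markers, all 5 tested oligodendrocyte lineage markers, 5 of 6 neuronal, 3 of 4 mural cell and 2 of 3 fibroblast markers were also lower in KO. Of the microglial markers 1 of 8, of the border macrophage markers 1 of 6 and of the endothelial markers 1 of 5 were lower. No marker passed the adjusted threshold, and the part of these cells in the lean of the matrix genes was not tested. The batch of each library is not given in the sources used here, and its part was not tested either.

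**Figure D5:**
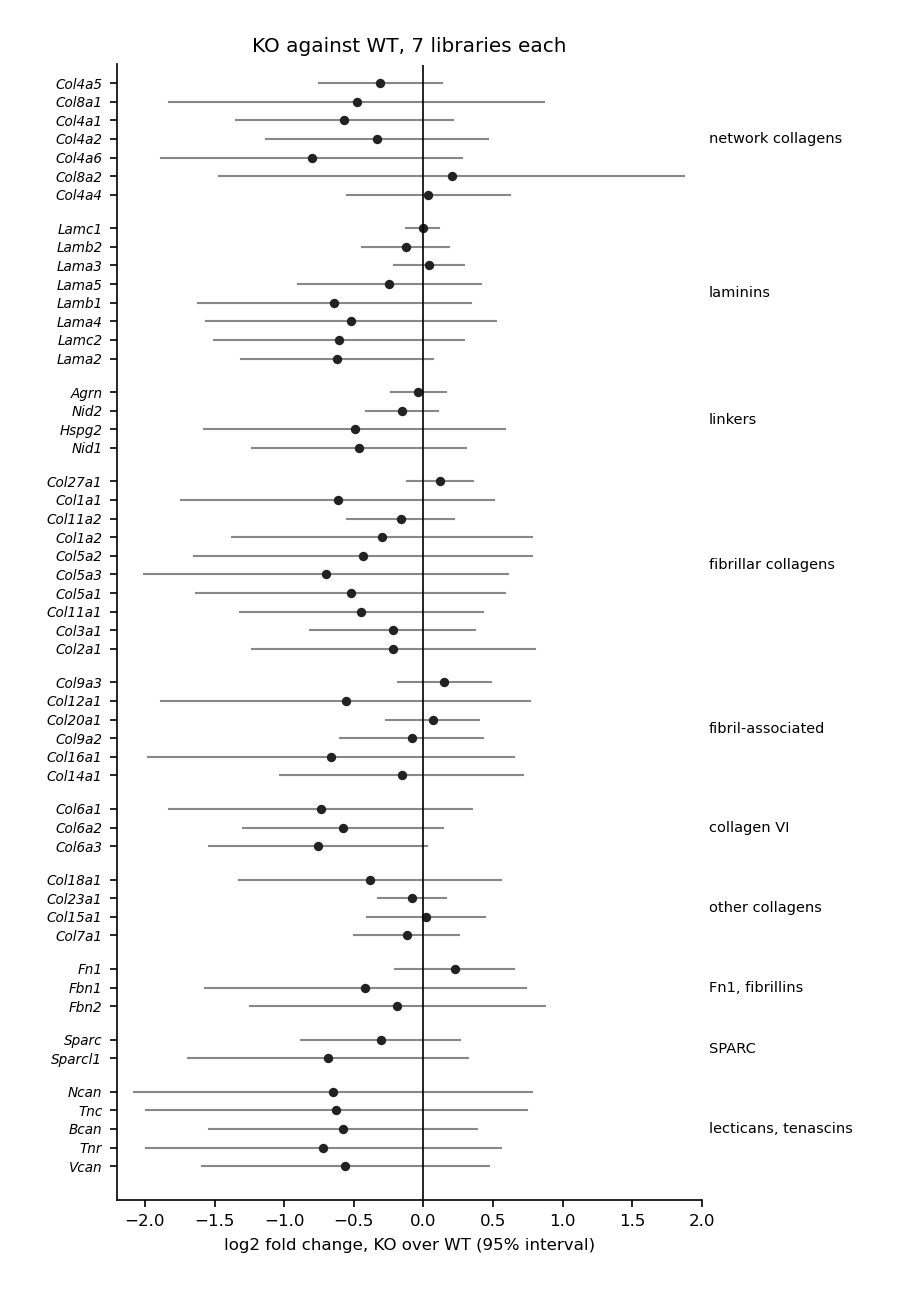
Log2 fold change of KO over WT for each of the 52 tested matrix genes, with its 95% interval (edgeR, 7 libraries per genotype), grouped by class. All intervals cross 0, 44 estimates lie to the left of it, and intervals are narrow for Lamc1 and Agrn and wide for Ncan, Tnc and Col8a2.

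Among the basement membrane genes, 5 of 7 tested network collagens were lower in KO and the class median was −0.33 on the log2 scale. Col4a1 ranged from 1.47 to 6.16 CPM in KO (median 2.86) and from 2.49 to 10.4 CPM in WT (median 4.56), and the estimate was −0.57 with a 95% interval from −1.35 to 0.21. Col4a5 was at −0.31 (−0.75 to 0.13), and Col4a6, which had the smallest p of the class (0.134, edgeR), at −0.80 (−1.88 to 0.28). Col8a1, a short-chain collagen, was at −0.48 (−1.83 to 0.87), with KO from 0.559 to 9.11 CPM and WT from 0.659 to 11.0 CPM. Col4a4 and Col8a2 had higher estimates in KO, 0.04 and 0.20, with intervals that covered 0.

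For laminin chains the median was −0.38, with 7 of 8 lower. The precise estimates were near 0. Lamc1 was at −0.01 with a 95% interval from −0.13 to 0.12, Lama3 at 0.04 (−0.21 to 0.29) and Lamb2 at −0.13 (−0.44 to 0.19). Lama2, the alpha chain of muscle and of vessels in the brain, had the smallest p of the class (0.0742, edgeR). It ranged from 0.198 to 0.658 CPM in KO (median 0.459) and from 0.392 to 1.46 CPM in WT (median 0.623), and the estimate was −0.62 (−1.31 to 0.07). Lama4 was at −0.52 (−1.56 to 0.52). The 4 linkers were all lower, with a median of −0.31, from Agrn at −0.04 (−0.24 to 0.16) and Nid2 at −0.15 (−0.41 to 0.11) to Nid1 at −0.46 (−1.23 to 0.31) and Hspg2 at −0.49 (−1.58 to 0.59).

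The collagen VI chains, which form beaded filaments beside basement membranes, had the lowest class median, −0.74, with 3 of 3 tested chains lower. Col6a3 ranged from 0.117 to 0.715 CPM in KO (median 0.332) and from 0.220 to 0.866 CPM in WT (median 0.580). Its estimate of −0.75 had a 95% interval from −1.54 to 0.03 (edgeR p = 0.0574, adjusted 0.943, exact permutation p = 0.0612 on log2 CPM). Col6a1 was at −0.74 (−1.83 to 0.35) and Col6a2 at −0.58 (−1.30 to 0.14). These are low counts, between 5 and 42 reads per library for Col6a3.

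Of the fibrillar collagens 9 of 10 were lower, with a median of −0.37. Col1a1 ranged from 0.722 to 4.87 CPM in KO (median 2.09) and from 1.01 to 9.22 CPM in WT (median 2.84), and the estimate was −0.62 with a 95% interval from −1.74 to 0.51. Col5a3 was at −0.70 (−2.01 to 0.61) and Col11a2 at −0.16 (−0.55 to 0.22). Col27a1, a fibrillar collagen of developing cartilage, was at 0.12 (−0.12 to 0.36). The fibril-associated collagens had a median of −0.12, with 4 of 6 lower, from Col16a1 at −0.66 (−1.98 to 0.65) and Col12a1 at −0.56 (−1.88 to 0.77) to Col20a1 at 0.07 (−0.27 to 0.40) and Col9a3 at 0.15 (−0.18 to 0.48). The remaining collagens had a median of −0.10, with Col18a1 at −0.38 (−1.32 to 0.56), Col23a1 at −0.08 (−0.33 to 0.17) and Col15a1 at 0.02 (−0.41 to 0.44).

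Fn1 was the member with the smallest p among those higher in KO (0.283, edgeR). It ranged from 70.0 to 191 CPM in KO (median 109) and from 68.6 to 143 CPM in WT (median 93.3), with an estimate of 0.22 and a 95% interval from −0.20 to 0.65. The fibrillins Fbn1 and Fbn2, which form elastic microfibrils, were at −0.42 (−1.57 to 0.74) and −0.19 (−1.24 to 0.87). Sparc ranged from 34.4 to 79.2 CPM in KO (median 47.8) and from 31.0 to 113 CPM in WT (median 63.0), with −0.31 (−0.88 to 0.26), and Sparcl1 was at −0.69 (−1.69 to 0.32).

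All 5 tested lecticans and tenascins were lower in KO, with a median of −0.62. The estimates were −0.65 for Ncan (−2.08 to 0.78), −0.62 for Tnc (−1.99 to 0.74), −0.58 for Bcan (−1.54 to 0.39), −0.72 for Tnr (−1.99 to 0.56) and −0.56 for Vcan (−1.59 to 0.47). These intervals leave room for large changes either way, and the exact permutation p on log2 CPM was 0.385, 0.425, 0.319, 0.336 and 0.418. Without WT replicate 4 the class median was −0.29. These 5 genes, like Sparcl1, followed the glial marker sums, and no other member was set against those sums. The part of glial cells in these estimates was not tested.

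Under other settings of the same comparison a few members fell under an unadjusted p of 0.05, none of them with an adjusted p under 0.05. With limma-voom and sample weights they were Col6a2 and Col6a3, beside 2.46% of all tested genes lower in KO. In a fit that added the replicate number of the labels it was Col6a3 (2.7% of all tested genes), with DESeq2 and the same term Col6a1 and Col6a3 (1.89%), and without the filter on low counts Lamc3 (1.98%). With 1 library left out, they were Col6a2 and Col6a3 without KO replicate 1 (2.99% of all tested genes), Col4a5 and Col4a6 without KO replicate 7 (1.9%), Acan and Nid2 without WT replicate 1 (1.61%), Acan, Col6a3 and Lama2 without WT replicate 5 (2.87%) and Lama2 without WT replicate 7 (1.86%). These counts are 1 to 3 of the members.

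The other genes of the pathway were read from lists of the hyaluronan system, collagen maturation, matrix receptors, chondroitin sulfate synthesis and matrix-cleaving proteases. Of 85 genes, 74 were tested, 0 had an adjusted p under 0.05 and 1 an unadjusted p under 0.05 (3.37% of all tested genes), and 46 were lower and 28 higher in KO (49.2% of all tested genes were lower). That gene was Csgalnact1, an enzyme that starts chondroitin sulfate chains, at 0.140 to 0.505 CPM in KO and 0.264 to 0.618 CPM in WT. Its log2 fold change was −0.62 with a standard error of 0.29 (adjusted p = 0.943, edgeR). Chst3, a chondroitin sulfotransferase, was at −0.41 (standard error 0.34).

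For hyaluronan and link proteins, 7 of 8 tested genes were lower, with a median of −0.12. Hyal2, a hyaluronidase, was at 18.3 to 26.4 CPM in KO and 21.5 to 25.7 CPM in WT (−0.12, standard error 0.07), and Has2, a hyaluronan synthase, at 0.0247 to 0.505 CPM and 0.0878 to 1.20 CPM (−0.87, standard error 0.57). For collagen maturation, 9 of 21 were lower and the median was 0.0023, with Bmp1, which trims procollagen, at −0.49 (standard error 0.27) and the prolyl hydroxylase subunit P4ha3 at −0.95 (standard error 0.64). For matrix receptors, 15 of 19 were lower, with a median of −0.08. Itgb1, the integrin subunit shared by most collagen and laminin receptors, lay between 582 and 688 CPM in KO and between 615 and 686 CPM in WT (−0.06, standard error 0.04), and Itgb8 was at −0.76 (standard error 0.54). For the proteases, 7 of 11 were lower, with a median of −0.10. Mmp9, a gelatinase, lay between 1.38 and 13.1 CPM in KO and between 1.14 and 7.32 CPM in WT (0.65, standard error 0.47), and Mmp15, a membrane-bound metalloproteinase, was at −0.62 (standard error 0.46). The groups overlapped for each of these 10 genes.

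The counts of some members are uncertain. The exons of 22 members overlap those of another gene, by 14 to 2442 bases, and the strand setting of the counting is not given in the sources used here. The longest overlap was that of Fbn1 with Gm9913 (2442 bases). Others include Lama2 with Gm48084 (631 bases), Tnr with Gm38039 (443 bases), Nid2 with Rtraf (437 bases) and Fn1 with Apol7d (292 bases). Shorter ones include Col9a3 with Tcfl5 (234 bases), Lama3 with Gm29200 (197 bases), Tnc with 8030451A03Rik (176 bases) and Nid1 with Gm48682 (143 bases).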

How the data were processed

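Bulk RNA-seq libraries of 14 microglial cultures were analyzed, 7 of each genotype, with genotype and replicate number as the sample labels give them. Per the submitters' processing notes the tools were Trimmomatic 0.36, STAR 2.5.2b, featureCounts of Subread 1.5.2 and DESeq2, with the GRCm38 genome. The authors deposited unnormalized read counts by Ensembl gene ID for each library. The strand setting, the annotation release and the batch of each library are not given in the sources used here, so the batch that the authors modeled was not fitted.

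Symbols, positions and exon lengths came from the GENCODE vM21 annotation of GRCm38, which paired 49056 of 49315 IDs. The members and all gene lists were chosen with earlier results of these data known. The filterByExpr function (minimum count 10, minimum total 15) chose the tested genes. TMM scaling and the two-sided quasi-likelihood test were those of edgeR 4.0.16 (R 4.3.3), on genotype alone, with Benjamini-Hochberg adjustment over 15700 genes and a threshold of 0.05. Log2 CPM used a prior count of 1. The depth was between 38875344 and 48070236 counts per library. The BCV trend is that of edgeR. TPM were computed from counts and the union of exons of each gene. Single genes were also compared by a two-sided exact permutation test over all 3432 splits into 7 and 7, for which the smallest p is 0.000583. Relations across cultures were tested by 100000 permutations within genotype (Python 3.11.15, scipy 1.17.1). The scripts were tested on simulated data.

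The text names, of each class, the 3 members with the highest level and those with the smallest p and the largest spread, then the 3 with the smallest p in each direction, the members of the 16 relations and 2 genes of each further list by p. Col4a4, Lama5 and other chains outside this rule complete a class and were chosen after their values were seen. Alternatives were tried for the scaling, the filter, the tool (DESeq2 1.42.0, limma-voom with limma 3.58.1), the replicate block, the prior count, the transcript length and, by leaving out 1 at a time, the libraries. The summed level of the microglial markers is not reported here.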

Additional observations from a re-analysis of the deposited data

Results flagged for a closer look

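Of the 88 groups of 7 libraries that were looked at for a sample far from the others, 2 held one, where chance gives about 1 in 20 groups. Lama2, a laminin alpha chain, was at 0.198 CPM in KO replicate 5, below the other KO libraries, which lay between 0.396 and 0.658 CPM. Nid2 was at 16.4 CPM in WT replicate 1, below the other WT libraries, which lay between 23.7 and 30.3 CPM. Without WT replicate 1 the log2 fold change of Nid2 was −0.23 (edgeR, unadjusted p = 0.0305, adjusted p = 0.924).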

How the results depend on the processing

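No member had an adjusted p under 0.05 in any of the 22 alternatives, and Timp2 stayed between −1.95 and −1.90. Of the 36 members followed by name, 29 kept their direction. The number of members lower in KO at an unadjusted p under 0.05 was 0 as reported, 1 without the filter, 2 with limma-voom, 1 with the replicate block, 2 with DESeq2 and the replicate block, and 0 to 3 with 1 library left out (3 without WT replicate 5, beside 2.87% of all tested genes). Of the further lists it was 1 as reported, 2 without the filter, 0 with a mean CPM of at least 1, 0 with DESeq2, 2 with limma-voom, 2 with the replicate block and 0 to 4 with 1 library left out, while 0 to 1 were higher. The cause was not tested. Directions turned for Col8a2 (−0.65 with limma-voom, −0.0916 with DESeq2 and the block, −0.34 to 0.97 with 1 library left out), Fbn2 (0.00396 with DESeq2 and the block, −0.38 to 0.22), Lama3 (−0.00488 with limma-voom, −0.0147 to 0.12), Agrn (−0.0899 to 0.0071), Col15a1 (−0.10 to 0.13), Col20a1 (−0.0077 to 0.17) and Lamc1 (−0.0317 to 0.0221). The median of the members was between −0.58 and −0.16 over all alternatives, and among class medians that of fibril-associated collagens (−0.25 to 0.04), of transmembrane and other collagens (−0.16 to 0.01) and of fibronectin with fibrillins (−0.38 to 0.22) changed sign. The relation of Fn1 with fibroblast markers was r = 0.60 (permutation p = 0.0351) without KO replicate 7. The median SD of log2 CPM of the members within a genotype was between 0.74 and 0.87 over the 17 alternatives in which it was computed. Same-numbered KO and WT libraries had a correlation above 0.1 in 3 of 7 pairs (range −0.20 to 0.74, mean 0.10, against −0.02 for other pairs). In addition, 3 of 14 libraries were closest to their own number. The numbers were therefore not taken as a pairing, and the replicate block changed no call at the adjusted threshold. With 7 cultures per genotype and this spread, changes well under the interval widths given could not be detected, and for genes of few counts depth limits any comparison.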
